A study of Mus musculus with 24 samples.

Results

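The acute-phase genes of the liver described here were the 10 rows of the count table whose Ensembl identifier maps to Saa1, Saa2, Saa3, Saa4, Lcn2, Hp, Orm1, Orm2, Itih4 or Apcs. They were chosen by name, from 33019 identifiers in all, and all 10 were among the 15851 genes that passed the filter on low counts. Liver RNA was measured in 24 libraries from C57BL/6J mice aged 2 months, 4 libraries for each of 6 genotypes. These were wild type (WT), hepatic deletion of Atg5, which autophagosomes need to form (Atg5 KO), hepatic deletion of Tsc1, which holds back the growth kinase complex mTORC1 (TSC1 KO), and deletion of both (DKO). In the remaining groups both deletions were joined by that of the autophagy receptor p62 (p62 TKO) or that of the antioxidant transcription factor Nrf2 (Nrf2 TKO). Which promoter drives the deletion is not named in the sources used here, nor whether the libraries are of different animals, and the p-values therefore reflect only how far these libraries scatter.

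When tissue is injured or infected, cytokines of the IL-6 and IL-1 families reach the hepatocyte, activate the transcription factors STAT3, C/EBP and NF-kB, and the liver secretes acute-phase proteins. Saa1 and Saa2 encode serum amyloid A proteins that circulate on high-density lipoprotein and can rise steeply, Saa3 encodes a form also made outside the hepatocyte, and Saa4 encodes the form that is made constitutively. Lcn2 encodes lipocalin 2, which binds bacterial siderophores and is also made by epithelia and neutrophils. Hp encodes haptoglobin, which binds free hemoglobin. Orm1 and Orm2 encode orosomucoids, carriers of drugs and lipids in plasma. Itih4 encodes a member of the inter-alpha-trypsin inhibitor heavy chain family, and Apcs encodes serum amyloid P, a pentraxin that is the main inducible one in the mouse.

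On GRCm38 with GENCODE M21 the serum amyloid genes lay side by side on chromosome 7, with Saa3 at 46711998 to 46715700, Saa4 at 46727998 to 46732603, Saa1 at 46740497 to 46742980 (all on the minus strand) and Saa2 at 46751790 to 46754313 on the plus strand, head to head with Saa1. Orm1 (63344560 to 63348163) and Orm2 (63362449 to 63365878) were neighbours on the plus strand of chromosome 4. The other 4 genes stood alone: Lcn2 (chromosome 2, 32384633 to 32388252, minus strand), Hp (chromosome 8, 109575128 to 109579172, minus strand), Itih4 (chromosome 14, 30886476 to 30902353, plus strand) and Apcs (chromosome 1, 172893961 to 172895041, minus strand). No other annotated gene overlapped any of the 10.

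RefSeq held a promoter window for 8 of the 10 genes (GRCm38.p6, the 250 bases before the RefSeq start, which for Saa2, Saa3, Lcn2 and Apcs is not the end of the GENCODE gene). Hp and Orm1 are named only. Windows are printed 5′ to 3′ on the gene's strand for the near-identical pair Saa1 and Saa2, for their constitutive neighbour Saa4, for Lcn2, whose levels departed from the other 9, and for Itih4, whose window held the STAT palindrome. Capitals mark matches, on either strand, to the C/EBP core TTGCNNAA or the STAT palindrome TTCNNNGAA.

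Saa1, chr7:46742981-46743230, minus strand: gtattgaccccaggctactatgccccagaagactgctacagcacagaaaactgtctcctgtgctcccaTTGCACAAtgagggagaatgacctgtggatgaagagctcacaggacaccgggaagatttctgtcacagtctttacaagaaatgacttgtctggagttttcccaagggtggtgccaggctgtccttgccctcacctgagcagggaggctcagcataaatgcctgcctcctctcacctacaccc

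Saa2, chr7:46751583-46751832, plus strand: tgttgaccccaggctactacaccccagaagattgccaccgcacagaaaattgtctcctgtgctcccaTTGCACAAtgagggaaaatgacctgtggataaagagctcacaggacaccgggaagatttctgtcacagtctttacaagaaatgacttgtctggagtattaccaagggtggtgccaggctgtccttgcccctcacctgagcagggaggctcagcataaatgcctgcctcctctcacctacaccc

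Saa4, chr7:46732604-46732853, minus strand: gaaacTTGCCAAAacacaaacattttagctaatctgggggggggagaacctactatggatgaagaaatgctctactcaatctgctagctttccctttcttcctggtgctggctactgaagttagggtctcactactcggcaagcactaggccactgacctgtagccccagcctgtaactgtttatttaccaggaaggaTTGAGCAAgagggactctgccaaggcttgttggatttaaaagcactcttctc

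Lcn2, chr2:32387740-32387989, minus strand: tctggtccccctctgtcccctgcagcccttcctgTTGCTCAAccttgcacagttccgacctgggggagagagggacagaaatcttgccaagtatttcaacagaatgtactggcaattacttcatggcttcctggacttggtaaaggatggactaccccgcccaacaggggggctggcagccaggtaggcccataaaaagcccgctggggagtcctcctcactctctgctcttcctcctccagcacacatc

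Itih4, chr14:30886226-30886475, plus strand: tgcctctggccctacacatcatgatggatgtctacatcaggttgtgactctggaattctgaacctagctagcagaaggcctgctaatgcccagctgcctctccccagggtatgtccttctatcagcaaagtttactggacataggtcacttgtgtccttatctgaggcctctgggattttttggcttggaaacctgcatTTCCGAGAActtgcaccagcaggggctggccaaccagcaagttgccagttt

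The windows of Saa1 and Saa2 were identical at 94.8% of aligned bases, and those of Saa1 and Saa4 at 46.3%. Both Saa1 and Saa2 carried TTGCACAA, from -182 to -175 bases before the start in Saa1 and from -183 to -176 in Saa2. The window of Saa4 held TTGCCAAA from -245 to -238 and, for the other strand, TTGAGCAA from -52 to -45, that of Lcn2 held TTGCTCAA from -216 to -209, and that of Itih4 held TTCCGAGAA from -51 to -43. The C/EBP core was found in 6 of the 8 windows, at 1 position in Saa1, Saa2, Saa3, Lcn2 and Orm2 and at 2 positions in Saa4, against 9.56% of all 32851 windows of that length. The STAT palindrome was found in the other 2, Itih4 and Apcs, and in 7.02% of all windows. No window held the NF-kB consensus (3.9% of all windows). The motifs do not overlap each other in these windows. A match is a string of letters, and binding was not measured.

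Libraries held between 10494080 and 13057467 counts. Levels are given as CPM, a count relative to the library's total after scaling by TMM, changes are log2 fold changes ± SE from edgeR's quasi-likelihood test, and genes with a p under 0.05 after Benjamini-Hochberg adjustment over the 15851 genes count as called. "Rose" and "fell" are used of called genes. Scaling by total counts alone shifted the median change of all genes. Against WT it became 1.07 for DKO, 0.37 for Atg5 KO, 0.14 for TSC1 KO, 0.55 for p62 TKO and 0.39 for Nrf2 TKO. For DKO it became 0.67 against Atg5 KO and 0.96 against TSC1 KO, and against DKO it became -0.48 for p62 TKO and -0.71 for Nrf2 TKO. It became -0.28 for TSC1 KO against Atg5 KO, 0.19 for p62 TKO against Nrf2 TKO and 0.52 for the interaction of the single losses. Changes are therefore relative to the TMM-scaled genes, and the share of all genes called is given on both scales. Which exons are deleted is not given, so gene counts do not check the deletions, and genotypes are named as labelled. All 10 markers of hepatocytes were detected in every group, with a summed level of 89700 to 109000 CPM in WT and 13600 to 19300 in DKO.

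The wild-type libraries differed widely from each other in every one of the 10 genes, and in the same order, with replicate 4 highest, then 1, then 2, and replicate 3 lowest. Saa1 stood at 6374, 4702, 784 and 27696 CPM in WT replicates 1 to 4, and Saa2 at 6400, 4490, 562 and 35333. In replicate 4 these neighbours alone took 227402 and 290105 counts. Saa3 stood at 46.5, 15.2, 8.04 and 1035 CPM, so that nearly all of its WT mean came from replicate 4. Lcn2 stood at 469, 290, 21.1 and 2844 CPM and Orm2 at 749, 467, 40 and 1645. The ratio of the highest to the lowest WT library was 135 for Lcn2, 129 for Saa3, 62.8 for Saa2, 41.1 for Orm2 and 35.3 for Saa1. It was smaller for Apcs (8.82), Orm1 (5.4), Hp (5.26), Itih4 (3.68) and the constitutive Saa4 (3.18). On the log2 scale the median SD of all genes over the WT libraries was 0.274, and only 0.252% of genes had a larger SD than Saa1 (2.11), 0.082% a larger one than Lcn2 and 8.44% a larger one than Itih4.

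Genes that act upstream of these 10 were compared in the same libraries. Socs3, which STAT3 induces and which then damps the receptor, stood at 49.1, 57.8, 17.4 and 65.2 CPM in WT replicates 1 to 4, and Stat3 at 248, 218, 133 and 264. The IL-1 receptor gene Il1r1 stood at 134, 130, 85.3 and 225 CPM and the IL-6 receptor chain Il6ra at 64.4, 59.4, 35.9 and 80.3. Each of these was lowest in replicate 3 and highest in replicate 4, like the 10 genes. Not every gene chosen for its role did so. Il1b stood at 2.61, 4.27, 1.91 and 1.46 CPM and Nfkbiz at 35.1, 26.1, 27.5 and 19.2, both lowest in replicate 4. Nfkbia stood at 126, 73.7, 85.5 and 77.8 CPM and Il6st at 239, 213, 184 and 222, both highest in replicate 1. Il6 itself was nearly absent from every group, with 2 counts over the 4 WT libraries and at most 12 over those of any group, and was not tested. Summed neutrophil markers did not follow the order of the 10 genes, at 17.7, 8.89, 9.21 and 8.4 CPM, and the defining neutrophil gene Ly6g was at 0 in WT. Prtn3, a neutrophil granule gene outside these markers and named below for its likeness to Saa2, did follow it. It stood at 27, 13.3, 1.27 and 40.1 CPM. The part of neutrophils in the order was not tested. Summed hepatocyte markers stood at 109000, 108000, 109000 and 89700 CPM. Sex, batch and time of day are not given in the labels, and their part in the order was not tested.

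**Figure D1:**
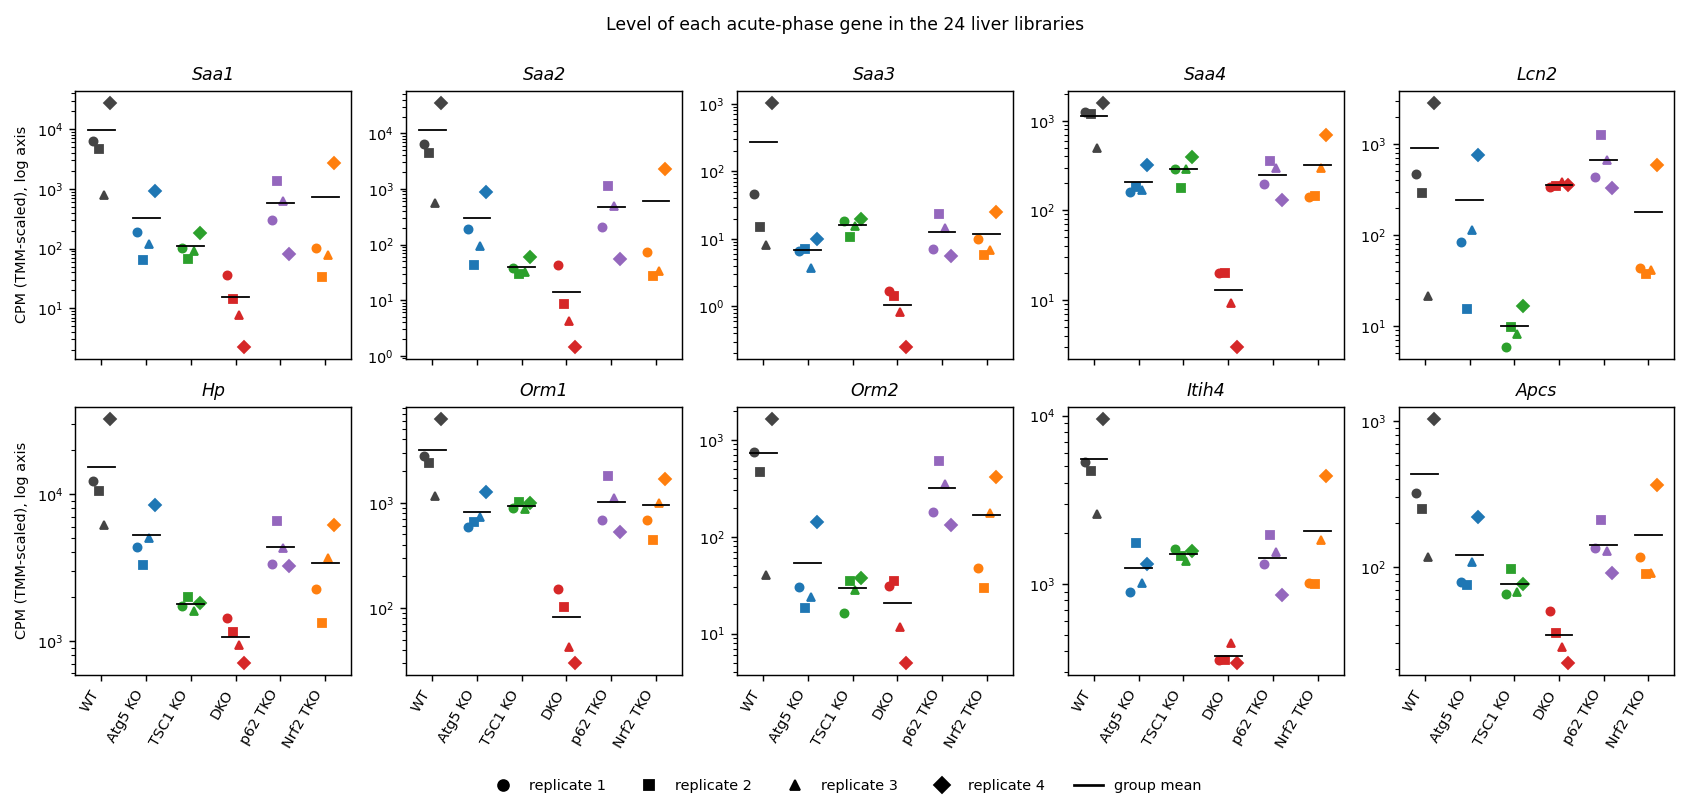
Level of each of the 10 genes in CPM on TMM-scaled totals (log axis) in the 24 libraries, with 1 panel per gene, 1 column per genotype, 1 symbol per library (shape gives the replicate number) and a line at the group mean. WT replicate 4 is the highest and WT replicate 3 the lowest WT library in all 10 panels, the DKO mean is lowest in every panel except that of Lcn2, and the 4 DKO libraries of Lcn2 lie between 334 and 381 CPM.

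Most other genotypes also had a library that was highest or lowest for most of the 10 genes. In p62 TKO replicate 2 was highest and replicate 4 lowest for 10 of 10 genes. In Nrf2 TKO replicate 4 was highest for 10 of 10 genes and replicate 2 lowest for 9. In Atg5 KO replicate 4 was highest for 9 of 10, Itih4 being the exception. In DKO replicate 1 was highest for 7 and replicate 4 lowest for 9 of 10. In TSC1 KO the commonest order was shared by 3 genes, as in Atg5 KO, with replicate 4 highest for 6 and replicate 2 lowest for 4. The replicate numbers did not pair libraries across genotypes. Summed neutrophil markers were also highest in p62 TKO replicate 2 (55 CPM, others 14.5 to 26.8) and in Nrf2 TKO replicate 4 (47 CPM, others 5.42 to 21.4), and their part in the level of the 10 genes was not tested.

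DKO was compared with WT for the joint effect of both deletions. Of the 10 genes 9 fell and none rose, and in all 9 every DKO library lay below every WT library, while Lcn2 was not called. How many of all genes separate in this way was not counted, here or in the comparisons below. Nothing is read from such separations alone. Of all genes tested 32.3% were called lower (11.1% with total counts alone). The median change of the 10 genes was -5.20 and that of all genes 0.08. Cells of each type and RNA per cell cannot be told apart in whole liver: all 10 hepatocyte markers also fell (median -2.85), and all 9 cholangiocyte markers rose (median 6.28).

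The inducible serum amyloids fell most. Saa1 stood at 36.7, 14.5, 7.82 and 2.26 CPM in DKO replicates 1 to 4, against 784 in the lowest WT library (-9.34 ± 1.80, adjusted p = 0.00013; from -10.24 without DKO replicate 1 to -8.01 without WT replicate 4). Saa2 stood at 42.7, 8.49, 4.27 and 1.45 CPM (-9.69 ± 2.02, adjusted p = 0.00029; from -11.28 without DKO replicate 1 to -8.07 without WT replicate 4). Saa3 was left with 30, 24, 16 and 5 counts in the 4 DKO libraries, or 1.71, 1.41, 0.834 and 0.251 CPM (-8.05 ± 1.39, adjusted p = 3.9e-05), and its change shrank to -4.47 without WT replicate 4. Saa4, the constitutive form, fell as well, from 1255, 1196, 498 and 1583 CPM in WT to 20, 20, 9.17 and 3.01 in DKO (-6.44 ± 0.68, adjusted p = 4.3e-08; from -6.77 without WT replicate 3 to -6.11 without DKO replicate 4). Its adjusted p was the smallest of the 10.

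The other secreted proteins fell by less. Orm1 stood at 2777, 2381, 1162 and 6280 CPM in WT and 153, 103, 42.8 and 30.2 in DKO (-5.26 ± 0.62, adjusted p = 1.8e-07; from -5.74 without DKO replicate 1 to -4.67 without WT replicate 4), and Orm2 at 31, 34.7, 11.6 and 5.01 in DKO (-5.14 ± 1.10, adjusted p = 0.00038; from -5.61 without WT replicate 3 to -4.34 without WT replicate 4). Itih4 stood at 5333, 4686, 2602 and 9577 CPM in WT and 353, 352, 446 and 340 in DKO (-3.90 ± 0.44, adjusted p = 6.1e-08; from -4.20 without WT replicate 3 to -3.49 without WT replicate 4). Hp stood at 12294, 10421, 6177 and 32516 CPM in WT and 1437, 1143, 937 and 710 in DKO (-3.86 ± 0.49, adjusted p = 3.9e-07; from -4.20 without WT replicate 3 to -3.18 without WT replicate 4). Apcs stood at 323, 251, 118 and 1037 CPM in WT and 50, 35.5, 28.3 and 22.1 in DKO (-3.67 ± 0.61, adjusted p = 2.2e-05; from -4.06 without WT replicate 3 to -2.76 without WT replicate 4). These 9 calls held under every alternative run, each library left out in turn included.

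Lcn2 alone did not move with them. Its level was 334, 343, 381 and 359 CPM in the 4 DKO libraries, a span of 1.14-fold, and 93.3% of genes had a larger SD in DKO. These values lay inside the WT range of 21.1 to 2844 CPM. The change was -1.35 ± 1.15, adjusted p = 0.3, and it turned to 0.45 (adjusted p = 0.74) without WT replicate 4. Whether Lcn2 in DKO comes from hepatocytes was not tested. Summed cholangiocyte markers, of which Spp1 made up most, stood at 6900 to 10200 CPM in DKO and 79.4 to 118 in WT. Those of macrophages stood at 319 to 516 and 231 to 374, and those of neutrophils at 11.8 to 25.4 and 8.4 to 17.7. Of 11 macrophage markers 5 rose and 5 fell, and of 8 tested neutrophil markers 1 rose and 0 fell. The neutrophil gene Elane was at 0 in DKO and Ly6g at 0 in WT.

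TSC1 KO was compared with WT for the loss of Tsc1 alone. All 10 genes fell, Lcn2 included, and for 9 of them, all but Saa3, no TSC1 KO library reached the lowest WT library. The gap was narrow for Orm2 (37.9 against 40 CPM) and Lcn2 (16.5 against 21.1 CPM). Of all genes 7.6% were called lower (3.96% with total counts alone), and the median change was -3.61 for the 10 and 0.01 for all genes. Saa2 stood at 38.2, 29.3, 32.4 and 59.7 CPM in TSC1 KO (-8.20 ± 1.90, adjusted p = 0.0066; from -8.61 without WT replicate 3 to -6.53 without WT replicate 4). Saa1 stood at 104, 66.7, 90.6 and 183 CPM (-6.48 ± 1.59, adjusted p = 0.0095; from -6.88 without WT replicate 3 to -5.10 without WT replicate 4). Lcn2 had its lowest levels of all genotypes here, 5.9, 9.67, 8.21 and 16.5 CPM (-6.49 ± 1.45, adjusted p = 0.0052; from -6.91 without WT replicate 3 to -4.63 without WT replicate 4). Hp stood at 1730, 2002, 1601 and 1798 CPM, a span of 1.25-fold (-3.11 ± 0.48, adjusted p = 0.00015; from -3.38 without WT replicate 3 to -2.38 without WT replicate 4), and Orm2 at 16.2, 34.8, 28.5 and 37.9 (-4.62 ± 1.08; from -5.03 without WT replicate 3 to -3.78 without WT replicate 4). Itih4 stood at 1613, 1467, 1363 and 1563 CPM and Apcs at 65.7, 97.3, 67.7 and 77. Itih4 fell by 1.89 ± 0.40 and Apcs by 2.49 ± 0.58, the latter by 1.53 without WT replicate 4. The 7 calls on Saa1, Saa2, Lcn2, Hp, Orm2, Itih4 and Apcs held under every alternative. Beside them 10 of 11 macrophage markers fell (median -1.99) and 8 of 9 cholangiocyte markers rose (3.37), while 1 of 8 neutrophil markers fell (-1.5) and no hepatocyte marker fell (-0.21). Their part was not tested.

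The remaining 3 calls in TSC1 KO depended on WT replicate 4. Saa3 stood at 18.4, 10.8, 15.4 and 19.4 CPM in TSC1 KO, and its change of -4.11 ± 1.11 became -0.49, adjusted p = 0.63 without that library. Saa4 stood at 287, 177, 293 and 390 CPM and Orm1 at 888, 1008, 875 and 987. For Saa4 (-1.98 ± 0.55) it became -1.73, adjusted p = 0.055, and for Orm1 (-1.74 ± 0.53) -1.11, adjusted p = 0.16. Saa3 and Saa4 were also not called without TSC1 KO replicate 2 (adjusted p = 0.053 and 0.061), and Orm1 was not called when WT replicate 1 or any TSC1 KO library was left out (adjusted p from 0.053 to 0.069).

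**Figure D2:**
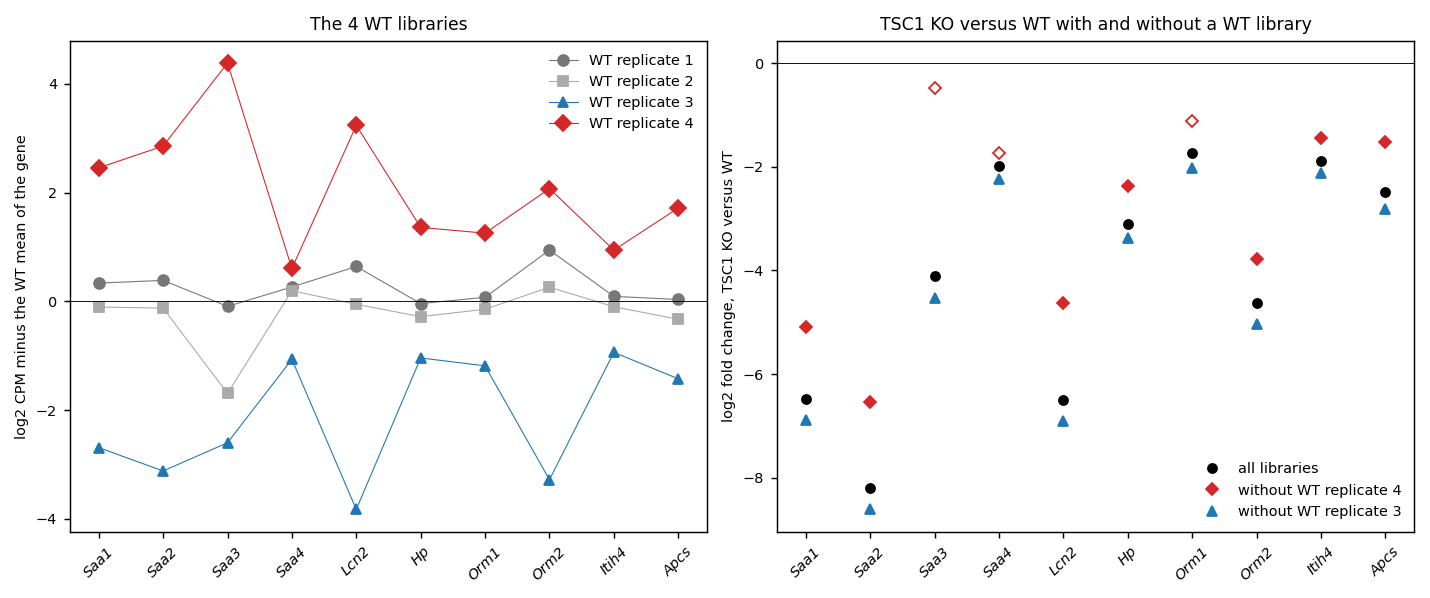
Left, level of the 10 genes in the 4 WT libraries as log2 CPM minus the gene's WT mean, with lines joining the genes of 1 library. Right, log2 fold change of TSC1 KO versus WT with all libraries, without WT replicate 4 and without WT replicate 3, filled where called at an adjusted p under 0.05 and open where not. The lines for replicates 4 and 3 stay above and below the other libraries for all 10 genes, and without replicate 4 the changes of Saa3 (-0.49), Saa4 (-1.73) and Orm1 (-1.11) are open.

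Atg5 KO was compared with WT for the loss of Atg5 alone, and 9 of the 10 genes fell while Lcn2 was not called (-1.91 ± 1.17, adjusted p = 0.24). Of all genes 11.3% were called lower (2.2% with total counts alone), and the median change was -2.30 for the 10 genes and 0.00 for all. Only Saa4 and Itih4 had no library in common range with WT. Saa4 stood at 159, 181, 169 and 323 CPM in Atg5 KO (-2.44 ± 0.56, adjusted p = 0.0026), and Itih4 at 900, 1747, 1009 and 1305 (-2.16 ± 0.41, adjusted p = 0.00041). Saa1 stood at 188, 65, 119 and 908 CPM (-4.95 ± 1.48, adjusted p = 0.016; from -6.32 without Atg5 KO replicate 4 to -3.58 without WT replicate 4), and Lcn2 at 82.9, 15.5, 114 and 755. Replicate 4 of Atg5 KO thus stood above WT replicate 3 in both (784 CPM for Saa1 and 21.1 for Lcn2). For Lcn2 replicates 1 and 3 of Atg5 KO did so too, and replicate 4 also stood above WT replicates 1 and 2 (469 and 290 CPM). Orm2 stood at 30.5, 18.2, 23.8 and 143 CPM (-3.75 ± 1.03; from -4.91 without Atg5 KO replicate 4 to -2.92 without WT replicate 4).

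Markers of other cells moved with this comparison: 8 of 9 cholangiocyte markers (median 3.37), 7 of 9 stellate cell and fibroblast markers (1.68) and 6 of 11 macrophage markers (1.02) rose, and 4 of 10 hepatocyte markers fell (-0.629). Summed cholangiocyte markers stood at 484 to 1150 CPM in Atg5 KO and 79.4 to 118 in WT, and their part was not tested. Saa2 stood at 188, 43.6, 93.3 and 895 CPM in Atg5 KO and Saa3 at 6.56, 7.01, 3.66 and 9.97, while Orm1 stood at 589, 650, 729 and 1272 and Apcs at 79.1, 75.3, 109 and 220. Replicate 4 was the highest of each. The calls on Saa4, Orm2 and Itih4 in Atg5 KO held under every alternative. Without WT replicate 4 the calls on Saa1 (-3.58), Saa2 (-3.60), Hp (-0.83), Orm1 (-1.34) and Apcs (-0.90) were lost, with adjusted p from 0.064 to 0.19, and Saa3 moved from -5.34 to -1.74. Leaving out Atg5 KO replicate 1 or replicate 3 lost Saa1, Saa2 and Apcs, and leaving out replicate 2 lost Saa2 and Apcs (adjusted p from 0.05 to 0.066). Without Atg5 KO replicate 4 Lcn2 was called as well (-3.68, with an adjusted p that rounds to 0.05 and lies under it).

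Between the single knockouts 2 of the 10 genes were lower in TSC1 KO than in Atg5 KO, namely Lcn2 (-4.58 ± 1.34, adjusted p = 0.015) and Hp (-1.57 ± 0.45, adjusted p = 0.012), against 16.8% of all genes (27.5% with total counts alone). Hp stood at 4338, 3285, 5035 and 8441 CPM in Atg5 KO, above all 4 TSC1 KO libraries. Neither call held without Atg5 KO replicate 4, where Lcn2 became -2.81, adjusted p = 0.099 and Hp -1.24, adjusted p = 0.055. The other 8 were not called, with changes from -2.93 for Saa2 to 1.23 for Saa3.

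DKO was then set against each single knockout, to see what the second deletion adds. Against Atg5 KO 7 genes fell (27.3% of all genes, 12.3% with total counts alone), with a median of -2.51 for the 10 genes and 0.04 for all. Saa4 fell by 4 ± 0.60 and Orm1 by 3.30 ± 0.57, followed by Hp (-2.32 ± 0.46), Apcs (-1.83 ± 0.57) and Itih4 (-1.73 ± 0.40), and these 5 calls held under every alternative. Saa1 (-4.39 ± 1.45, adjusted p = 0.014) and Saa2 (-4.42 ± 1.61, adjusted p = 0.025) also fell, but without Atg5 KO replicate 4 they stood at -3.02, adjusted p = 0.07 and -2.94, adjusted p = 0.11. Saa2 was also not called without DKO replicate 2, 3 or 4 (adjusted p from 0.062 to 0.066). Lcn2 (0.55 ± 1.14, adjusted p = 0.7), Orm2 (-1.39 ± 0.96) and Saa3 (-2.71 ± 1.31) were not called. All 10 hepatocyte markers also fell (median -2.08) and all 9 cholangiocyte markers rose (2.72), and their part was not tested.

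Against TSC1 KO 4 of the 10 genes fell and 1 rose, with a median of -1.75 for the 10 genes and 0.10 for all. With TMM the 4 lower lie near the share of all genes, and nothing is read from these counts. Saa4 fell by 4.46 ± 0.62, Saa3 by 3.94 ± 1.28, Orm1 by 3.51 ± 0.57 and Itih4 by 2.01 ± 0.41 (30% of all genes were called lower, 11.9% with total counts alone). Lcn2 rose by 5.13 ± 1.37 (adjusted p = 0.0027; from 4.89 without TSC1 KO replicate 1 to 5.41 without TSC1 KO replicate 4), from a range of 5.9 to 16.5 CPM to one of 334 to 381 CPM, where 36.6% of all genes were called higher (68% with total counts alone). These 5 calls held under every alternative. Saa1 (-2.86 ± 1.36, adjusted p = 0.07), Saa2 (-1.49 ± 1.44), Apcs (-1.18 ± 0.56), Hp (-0.75 ± 0.44) and Orm2 (-0.52 ± 0.95) were not called. Without DKO replicate 1, which held 747 of the 1002 Saa2 counts of the group, Saa1 was called (-3.78, adjusted p = 0.046) and Saa2 stood at -3.09. Markers moved here too: 5 of 8 neutrophil markers (median 2.02), all 9 cholangiocyte markers (2.87) and 6 of 11 macrophage markers (2.37) rose, while 1 macrophage marker fell and so did all 10 hepatocyte markers (-2.64). Summed neutrophil markers stood at 2.51 to 5.02 CPM in TSC1 KO and 11.8 to 25.4 in DKO, and cholangiocyte markers at 588 to 979 and 6900 to 10200. The defining neutrophil gene Ly6g was at 0 in TSC1 KO and Elane in DKO, and the part of these cells in the rise of Lcn2 was not tested. The comparisons with the single knockouts share the DKO libraries.

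The interaction of the single losses asks whether the DKO change differs from the sum of the single changes on the log2 scale. For Lcn2 it was positive (7.04 ± 1.79, adjusted p = 0.0047; from 5.15 without WT replicate 4 to 8.81 without Atg5 KO replicate 4) and held under every alternative. For Saa4 it was negative (-2.02 ± 0.76, adjusted p = 0.046; from -2.33 without DKO replicate 1 to -1.72 without DKO replicate 4), and the call was lost when any 1 of 11 libraries was left out and under 4 other settings (adjusted p from 0.054 to 0.12). These are 1 of 10 genes higher, against 15.5% of all genes (35.5% with total counts alone), and 1 of 10 lower, against 19.3% (10.6%). With total counts alone 2 of the 10 were called higher, Lcn2 and Orm2 (3.59, adjusted p = 0.035), and none lower (Saa4 -1.58, adjusted p = 0.082). With TMM the other 8 were not called, with values from -1.55 ± 0.74 for Orm1 to 3.77 ± 2.05 for Saa2. Orm1 was called without WT replicate 4 (-2.21) or DKO replicate 1 (-2.07), and Orm2 (3.23 ± 1.36) without WT replicate 3 (3.57) or Atg5 KO replicate 4 (4.39).

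**Figure D3:**
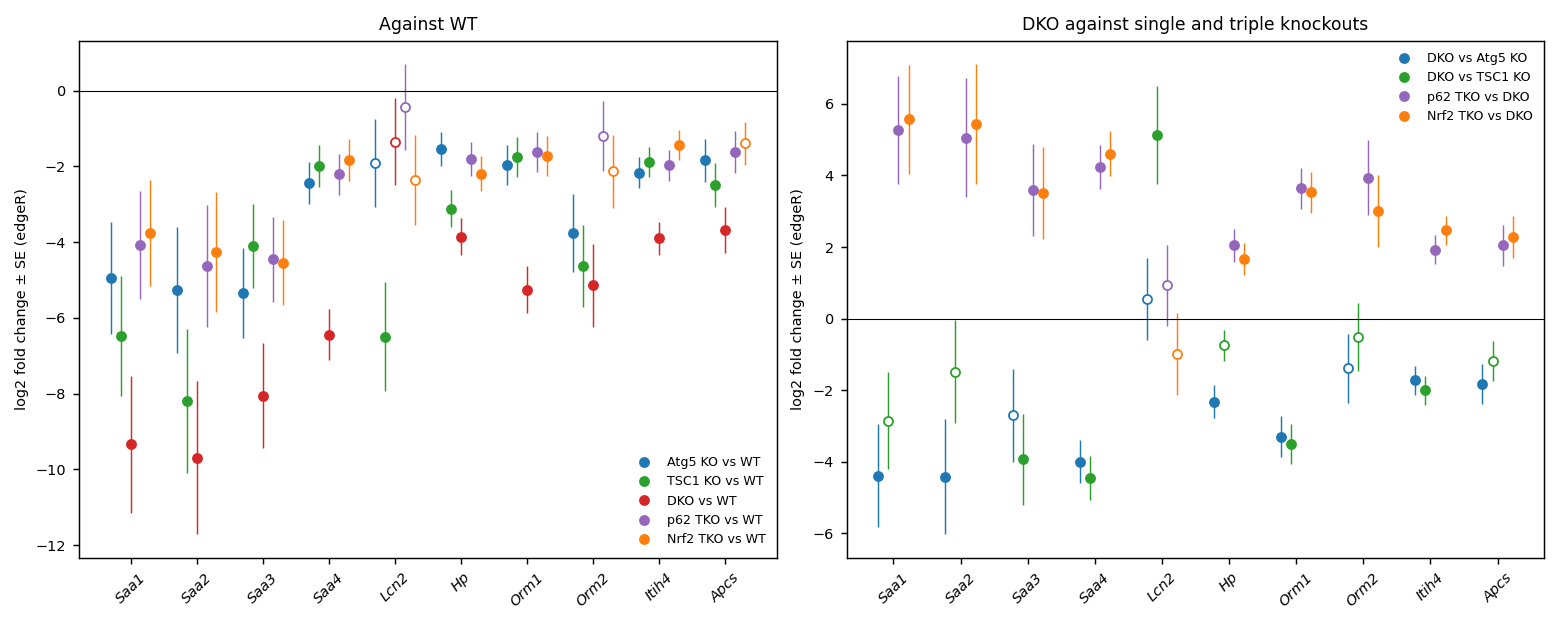
Log2 fold change ± SE (edgeR) of the 10 genes, on the left for 5 genotypes versus WT and on the right for DKO versus each single knockout and each triple knockout versus DKO, filled where called at an adjusted p under 0.05 and open where not. On the left all points lie below 0 and DKO is lowest for 9 genes; on the right Lcn2 is filled only for DKO versus TSC1 KO (5.13), while the other 9 genes are filled and above 0 for both triple knockouts versus DKO.

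p62 TKO was compared with DKO for the effect of losing p62 on top of both deletions. Of the 10 genes 9 rose, none fell and Lcn2 was not called, and each of the 9 was higher in every p62 TKO library than in any DKO library (22.3% of all genes were called higher, 10.2% with total counts alone). The median change was 3.62 for the 10 genes and -0.01 for all. Saa1 rose from 36.7, 14.5, 7.82 and 2.26 CPM to 302, 1336, 633 and 81.2 (5.26 ± 1.51, adjusted p = 0.008; from 4.51 without p62 TKO replicate 2 to 6.17 without DKO replicate 1), and Saa4 to 195, 360, 297 and 129 (4.24 ± 0.61, adjusted p = 1.4e-05). Orm2 stood at 180, 605, 348 and 131 CPM (3.94 ± 1.04, adjusted p = 0.0046; from 3.46 without p62 TKO replicate 2 to 4.32 without DKO replicate 2) and Orm1 at 688, 1781, 1121 and 522 (3.64 ± 0.58). Hp stood at 3365, 6540, 4305 and 3247 CPM (2.05 ± 0.46), Itih4 at 1314, 1950, 1549 and 865 (1.93 ± 0.41) and Apcs at 136, 209, 128 and 90.6 (2.05 ± 0.57). Saa2 stood at 204, 1150, 486 and 55.1 CPM and Saa3 at 7.01, 23.6, 14.5 and 5.61. The calls on Saa2 (5.06 ± 1.66) and Saa3 (3.60 ± 1.28) were lost without p62 TKO replicate 2 (4.17 and 3.15), DKO replicate 3 (4.76 and 3.50) or DKO replicate 4 (4.69 and 3.26), and that on Saa3 also without p62 TKO replicate 3 (3.52), with adjusted p from 0.051 to 0.079. The other 7 held under every alternative.

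Lcn2 in p62 TKO stood at 433, 1267, 662 and 333 CPM, and its change from DKO was 0.93 ± 1.14, adjusted p = 0.54 (from 0.46 without p62 TKO replicate 2 to 1.15 without p62 TKO replicate 4). Hepatocyte markers moved with the 9 genes: all 10 rose (median 1.6), with a sum of 38700 to 50100 CPM in p62 TKO and 13600 to 19300 in DKO, and all 9 cholangiocyte markers fell (median -1.53). Their part in these changes was not tested.

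Set against WT, p62 TKO was lower in 8 of the 10 genes (22.9% of all genes, 6.23% and 6 of the 10 with total counts alone), with a median of -1.89 against 0.02 for all genes. Lcn2 (-0.43 ± 1.13, adjusted p = 0.78) and Orm2 (-1.20 ± 0.93) were not called. Saa4 (-2.21 ± 0.55, adjusted p = 0.0024), Hp (-1.81 ± 0.45; -1.11 without WT replicate 4) and Itih4 (-1.97 ± 0.41) were called under every alternative. Without WT replicate 4 only these 3 were called, Saa3 moving from -4.45 to -0.85, Saa1 from -4.07 to -2.72, Saa2 from -4.63 to -2.98, Orm1 from -1.62 to -1 and Apcs from -1.62 to -0.68, and Lcn2 turned to 1.40. Without p62 TKO replicate 1 or replicate 4 the calls on Saa1, Saa2, Orm1 and Apcs were lost (adjusted p from 0.05 to 0.065), and without replicate 3 that on Saa2 (adjusted p = 0.051).

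Nrf2 TKO was compared with DKO in the same way, and 9 of the 10 genes rose, again without Lcn2 (26.7% of all genes were called higher, 11.5% with total counts alone). The median change was 3.26 for the 10 genes and -0.05 for all. Saa4 stood at 140, 146, 295 and 694 CPM (4.61 ± 0.62, adjusted p = 2.9e-06), Orm1 at 689, 439, 988 and 1695 (3.53 ± 0.57, adjusted p = 2.3e-05) and Itih4 at 1006, 1005, 1835 and 4397 (2.47 ± 0.41, adjusted p = 2.8e-05). Apcs stood at 117, 89.2, 90.7 and 365 CPM (2.28 ± 0.58) and Hp at 2273, 1330, 3683 and 6175 (1.67 ± 0.45), and these 5 calls held under every alternative. Replicate 4 carried most of the rest. Saa1 stood at 104, 33.9, 76.7 and 2705 CPM and Saa2 at 74.9, 27.3, 33.5 and 2312. Saa3 stood at 10.1, 5.8, 6.78 and 25.1 CPM and Orm2 at 47.1, 29.7, 174 and 413. In these libraries replicate 2 of Saa1 and replicates 2 and 3 of Saa2 lay within the DKO range. Replicate 2 also lay within it for Hp and Orm2, while Saa3, Saa4, Orm1, Itih4 and Apcs did not overlap. Without replicate 4 the changes of Saa1 (5.57 ± 1.53), Saa2 (5.43 ± 1.68), Saa3 (3.51 ± 1.29) and Orm2 (3.01 ± 1) became 2.29, 1.74, 2.91 and 2.1, and none of these was called (adjusted p from 0.08 to 0.26). Saa3 was also not called without DKO replicate 3 (3.42) or replicate 4 (3.18).

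As in p62 TKO, markers moved with the 9 genes: all 10 hepatocyte markers rose (median 2.46), with a sum of 72200 to 97600 CPM against 13600 to 19300 in DKO, and all 9 cholangiocyte markers fell (-1.86). Their part was not tested. Lcn2 in Nrf2 TKO stood at 43.2, 37.3, 41.4 and 591 CPM, against 334 to 381 in DKO. Replicates 1 to 3 thus lay below every DKO library and replicate 4 above. The change was not called with all libraries (-0.99 ± 1.14, adjusted p = 0.48), and without replicate 4 Lcn2 was called lower than in DKO (-3.07, adjusted p = 0.043). Socs3 in the same libraries stood at 14.5, 16.9, 16.9 and 104 CPM, Il1r1 at 33, 51.1, 64.5 and 310 and Stat3 at 89.4, 84.2, 137 and 248, so replicate 4 was the highest in each. Not every gene chosen for its role did so. Il1b stood at 8.12, 9.59, 4.26 and 4.15 CPM, lowest in replicate 4, and Cebpa at 298, 275, 385 and 284, highest in replicate 3.

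Against WT, 7 of the 10 genes were lower in Nrf2 TKO (17.1% of all genes, 6.33% with total counts alone), with a median of -2.16 against 0.07 for all genes. Saa4 (-1.83 ± 0.55, adjusted p = 0.012) and Hp (-2.19 ± 0.46, adjusted p = 0.00077; -1.48 without WT replicate 4) were called under every alternative, and only these 2 were called without WT replicate 4. Without it Saa1 moved from -3.76 to -2.39, Saa2 from -4.26 to -2.60, Saa3 from -4.54 to -0.93, Orm1 from -1.73 to -1.10 and Itih4 from -1.43 to -0.99. Saa1 and Saa2 were also not called without WT replicate 1 or Nrf2 TKO replicate 1, 2 or 3 (adjusted p from 0.051 to 0.099), and Orm1 not without Nrf2 TKO replicate 2 (adjusted p = 0.053). Without Nrf2 TKO replicate 4 all 10 were called, with Saa1 at -7.12, Saa2 at -8.03 and Lcn2 at -4.49. Apcs (-1.39 ± 0.56, adjusted p = 0.054) was called without WT replicate 2 or 3, and Orm2 (-2.13 ± 0.96, adjusted p = 0.086) without WT replicate 3.

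Between the triple knockouts none of the 10 genes was called, by edgeR or by DESeq2, where 17.5% of all genes were called in either direction. No gene had an unadjusted p under 0.05. The changes in p62 TKO relative to Nrf2 TKO ran from -0.54 ± 0.39 for Itih4 to 1.92 ± 1.17 for Lcn2. Without Nrf2 TKO replicate 4 Lcn2 was called higher in p62 TKO (4.03, adjusted p = 0.036). The changes of Saa1 (-0.31 to 3.01), Saa2 (-0.37 to 3.36), Saa4 (-0.38 to 0.31), Itih4 (-0.54 to 0.12) and Apcs (-0.23 to 0.48) turned positive, uncalled.

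Compared per length, as CPM per kb of the reference transcript, the order of the genes changed with genotype. In WT the highest medians were those of Saa1 (9093 CPM per kb), Saa2 (8985) and Hp (8444), followed by Orm1 (3327) and Itih4 (1681). In TSC1 KO they were those of Hp (1311), Orm1 (1210) and Itih4 (508.4), with Saa1 at 159.7 and Lcn2 lowest at 9.776. In DKO Hp (773.3) was followed by Lcn2 (383.6), and Saa1 (18.32), Saa2 (10.53), Saa4 (6.962) and Saa3 (2.026) were the 4 lowest after Itih4, Orm1, Apcs and Orm2. These orders are descriptions, with no test.

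The proportion within each paralog pair varied between libraries. By the exact permutation test no pair of genotypes reached an adjusted p under 0.05. With 4 against 4 libraries a p cannot lie under 0.0286, so 1 pair alone, even fully apart, could not pass over 15 pairs. The absence of calls therefore does not show that the proportions are alike. The ratio of Saa2 to Saa1 counts was 1, 0.955, 0.717 and 1.28 in WT replicates 1 to 4 (mean 0.988 ± 0.231, SD, n = 4) and 0.367, 0.44, 0.358 and 0.326 in TSC1 KO (0.373 ± 0.0482), so the TSC1 KO libraries lay below every WT library. The ratio was 0.705 ± 0.187 in Nrf2 TKO, 0.734 ± 0.287 in DKO, 0.745 ± 0.0878 in p62 TKO and 0.86 ± 0.16 in Atg5 KO. TSC1 KO lay below all libraries of every other genotype except Nrf2 TKO, where replicate 3 stood at 0.437. The exact 2-sided permutation test gave p = 0.0286 for TSC1 KO against WT, the smallest that 4 against 4 can give, and an adjusted p = 0.107 over the 15 pairs of genotypes.

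For the orosomucoids the ratio of Orm2 to Orm1 counts was 0.27, 0.196, 0.0344 and 0.262 in WT replicates 1 to 4, so WT replicate 3, the library low in all 10 genes, also had the lowest ratio. It was 0.0182, 0.0345, 0.0326 and 0.0384 in TSC1 KO, 0.0563 ± 0.0392 in Atg5 KO, 0.139 ± 0.0865 in Nrf2 TKO, with higher means in DKO (0.244 ± 0.0751) and p62 TKO (0.291 ± 0.0414). Atg5 KO and TSC1 KO lay below DKO and p62 TKO without overlap (exact permutation p = 0.0286, adjusted p = 0.0714 over 15 pairs). The pairs share sequence, and how the authors' counting treated reads that fit both copies is not given in the sources. Of the 75-base windows of Saa1 4.67% occur in Saa2, and 13.8% of those of Orm1 occur in Orm2. These are exact matches only, and how many reads were told apart in the authors' counting was not tested. The windows of Saa3, Saa4, Lcn2, Hp, Itih4 and Apcs occur in no other annotated transcript.

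**Figure D4:**
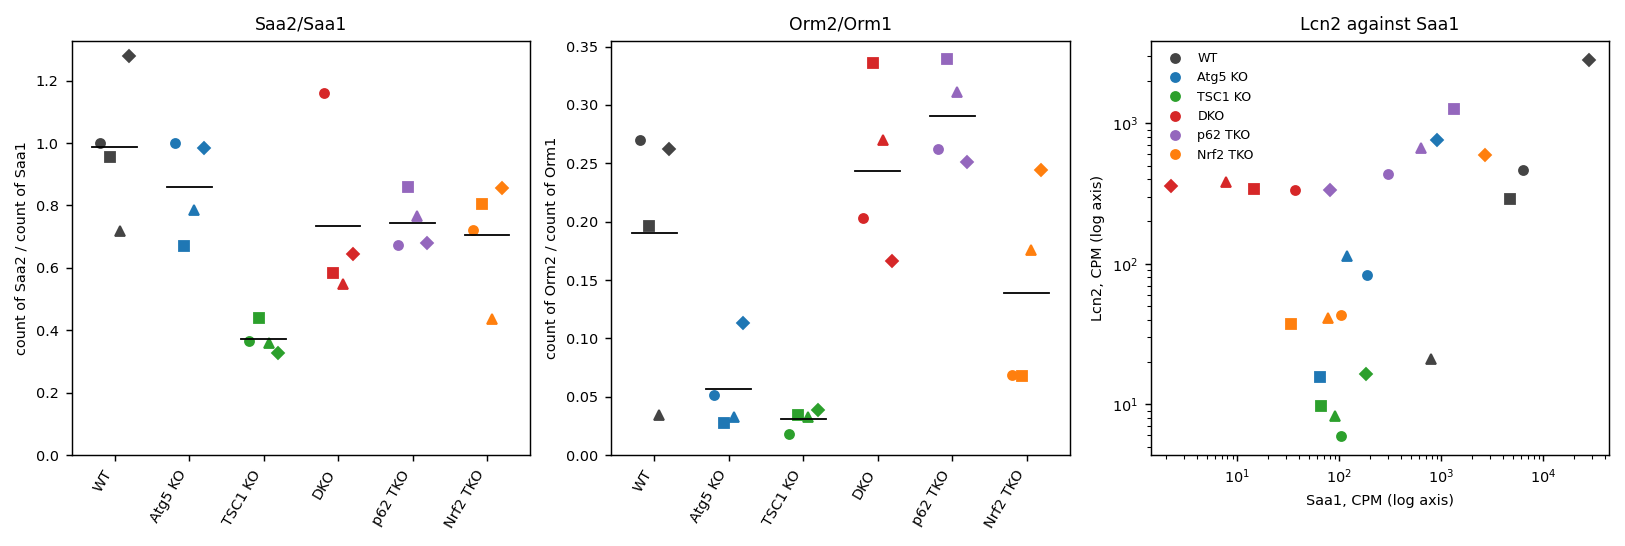
Left and middle, ratio of Saa2 to Saa1 counts and of Orm2 to Orm1 counts in each library (shape gives the replicate number, line the group mean). Right, Lcn2 against Saa1 in CPM, both on log axes, 1 point per library. TSC1 KO has the lowest mean ratio in both pairs (0.373 and 0.0309), and the 4 DKO libraries lie flat in Lcn2 while their Saa1 runs from 2.26 to 36.7 CPM.

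Counts for the gene lists that follow are read against all genes tested. In DKO versus WT 37.1% of all genes rose and 32.3% fell (70.4% and 11.1% with total counts alone), in TSC1 KO versus WT 8.79% and 7.6%, and in Atg5 KO versus WT 18.6% and 11.3%. Relative to DKO, 22.3% rose and 21.5% fell in p62 TKO, and 26.7% and 29.2% in Nrf2 TKO. Other inducible acute-phase genes were taken from a list of 27, of which 25 were tested. In DKO versus WT 4 rose and 19 fell (with total counts alone 4 and 16), with a median of -2.57. Mbl1, a mannose-binding lectin, fell by 4.30 ± 0.28, the fibrinogen chain Fgb by 3.84 ± 0.38, C4b by 2.57 ± 0.24, the pentraxin Crp by 2.63 ± 0.26 and the heme scavenger Hpx by 2.39 ± 0.34. Against this Il1rn, which encodes the antagonist of the IL-1 receptor and is itself inducible, rose from 6.47, 3.47, 1.16 and 8.28 CPM in WT to 130, 114, 159 and 87.8 in DKO (4.68 ± 0.45, adjusted p = 1e-08). In TSC1 KO versus WT 2 rose and 13 fell (with total counts alone 2 and 13), with the ferrireductase Steap4 at -3.51 ± 0.71, adjusted p = 0.0024 and Crp not called (-0.29 ± 0.25); without WT replicate 4 1 rose and 7 fell. In Atg5 KO versus WT 2 rose and 13 fell (with total counts alone 2 and 9), Crp among them (-1.18 ± 0.25).

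In p62 TKO versus DKO 18 rose and 1 fell (with total counts alone 15 and 3), and in Nrf2 TKO versus DKO 17 rose and 2 fell (with total counts alone 14 and 3). Crp rose by 1.63 ± 0.25 and 2.13 ± 0.26, Mbl1 by 2.98 ± 0.26 and 3.32 ± 0.27, and Hpx by 2.07 ± 0.33 and 1.98 ± 0.33. Il1rn fell in both, by 1.57 ± 0.37 and 2.11 ± 0.38. Both comparisons use the DKO libraries.

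Genes that the acute-phase response lowers, such as Alb, Ttr and Apoa1, were read beside them. In DKO versus WT all 11 tested fell (8 with total counts alone; median -1.83), and Alb stood at 62100, 61700, 67800 and 43400 CPM in WT and 6690, 7340, 5780 and 6810 in DKO (-3.14 ± 0.28, adjusted p = 1.5e-09). In TSC1 KO versus WT none of the 11 fell and Ttr rose (0.63 ± 0.20), though not without WT replicate 4 (0.60, adjusted p = 0.071), while Alb was not called (-0.47 ± 0.26). All 10 hepatocyte markers were detected there, with 1 higher, 0 lower and a median of -0.21. In Atg5 KO versus WT 5 fell, but 1 with total counts alone and 1 without WT replicate 4. In p62 TKO versus DKO 9 rose and in Nrf2 TKO versus DKO 10 rose (9 in both with total counts alone).

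Of 11 tested ligand and receptor genes of the IL-6 family, 4 rose and 5 fell (with total counts alone 5 and 1) in DKO versus WT, counts from which, beside the shares of all genes, nothing is read about the list. The oncostatin M receptor gene Osmr rose from 7.37, 5.08, 3.49 and 14.9 CPM to 36.1, 32.8, 41.9 and 40 (2.30 ± 0.39, adjusted p = 2.3e-05), and the ligand gene Clcf1 by 5.66 ± 0.37, while the LIF receptor gene Lifr fell by 3.40 ± 0.30. Il6ra (-1.04 ± 0.32) and the shared chain Il6st (-0.76 ± 0.17) were called lower, but with total counts alone stood at -0.03 and 0.24 and were not called. In TSC1 KO versus WT Il6st fell by 0.82 ± 0.17 and Il6ra was not called (-0.29 ± 0.31). Osmr fell in p62 TKO (-1 ± 0.36) and in Nrf2 TKO (-1.31 ± 0.37) relative to DKO, and Il6ra rose (1.08 ± 0.31 and 1.10 ± 0.31), though not with total counts alone (0.61 and 0.39).

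Among 17 JAK-STAT3 transducers and feedback genes 2 rose and 6 fell (with total counts alone 9 and 0) in DKO versus WT, and the total-count scaling moves all genes alike. Socs3 stood at 17, 12.7, 15.6 and 7.77 CPM in DKO (-1.83 ± 0.60, adjusted p = 0.01; -0.82 and not called with total counts alone) and Stat3 at 119, 108, 128 and 128 (-0.84 ± 0.24, but 0.17 and not called with total counts alone). In TSC1 KO versus WT 0 rose and 5 fell (with total counts alone 0 and 5). These included Socs3, at 11.2, 7.59, 8.31 and 18.5 CPM (-2.05 ± 0.62), Bcl3 (-1.72 ± 0.41), Junb (-1.52 ± 0.34) and Pim1 (-0.98 ± 0.25). Stat3 fell as well (-0.83 ± 0.24), and without WT replicate 4 Socs3 (-1.81, adjusted p = 0.076) and Stat3 (-0.67, adjusted p = 0.091) were not called.

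Of 28 genes of IL-1, TNF and NF-kB signalling 10 rose and 8 fell (with total counts alone 20 and 3) in DKO versus WT, shares near those of all genes on both scales. The IL-1 receptor accessory gene Il1rap fell from a mean of 181.1 to 11.3 CPM (-4 ± 0.27) and Il1r1 by 2.20 ± 0.52, while Tlr4 (2.95 ± 0.34), Relb (2.48 ± 0.34) and Nfkbie (2.37 ± 0.29) rose. Nfkbiz, a co-activator that the Lcn2 promoter is known to need, was not called (0.28 ± 0.22), but was called higher with total counts alone (1.26). In TSC1 KO versus WT 0 rose and 7 fell (with total counts alone 0 and 6), among them Nfkbiz, from 35.1, 26.1, 27.5 and 19.2 CPM in WT to 11.3, 12, 11.6 and 12 (-1.20 ± 0.23, adjusted p = 0.001), Il1r1 (-2.21 ± 0.53), Tlr2 (-1.97 ± 0.41) and the chemokine gene Cxcl1 (-3.90 ± 0.84). In DKO versus TSC1 KO 16 rose and 2 fell (with total counts alone 23 and 1). Of all genes 36.6% rose and 30% fell there (68% and 11.9% with total counts alone). Nfkbiz rose by 1.48 ± 0.23 and Ccl2 by 7.06 ± 0.74. Macrophage markers moved with this list: in TSC1 KO versus WT 0 of 11 rose and 10 fell, with sums of 59.2 to 153 CPM in TSC1 KO and 231 to 374 in WT, and in DKO versus TSC1 KO 6 rose and 1 fell. The part of macrophages in these changes was not tested, nor was that of Nfkbiz in the level of Lcn2. The means of both genes were lowest in TSC1 KO. In WT, Nfkbiz was lowest in replicate 4 (19.2 CPM), where Lcn2 was highest (2844 CPM).

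Of 14 transcription factor genes known to act on acute-phase promoters 1 rose and 10 fell (with total counts alone 4 and 5) in DKO versus WT. Cebpa stood at 476, 587, 527 and 561 CPM in WT and 115, 156, 130 and 120 in DKO (-2.05 ± 0.14, adjusted p = 2.3e-11), Cebpb at 194, 145, 105 and 262 and 38.3, 45.5, 28.1 and 29.8 (-2.32 ± 0.41, adjusted p = 3.8e-05), and Hnf4a fell by 1.92 ± 0.25. Cebpd was not called (0.51 ± 0.41). In TSC1 KO versus WT Cebpa was not called (0.01 ± 0.14, 564, 487, 540 and 569 CPM), nor was Cebpb (-0.73 ± 0.39), and Hnf4a fell by 0.77 ± 0.25, though not without WT replicate 4 (-0.76, adjusted p = 0.068). Cebpa rose by 1.24 ± 0.14 in p62 TKO and by 1.25 ± 0.14 in Nrf2 TKO relative to DKO, and Cebpb by 1.73 ± 0.40 and 2.04 ± 0.40.

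Receptors, ligands and relatives of the 10 gene products formed the last list, with 15 tested. In DKO versus WT 2 rose and 8 fell (with total counts alone 4 and 6). The heavy chain gene Itih1 fell by 3.10 ± 0.21, Ambp, which encodes the light chain bikunin, by 2.47 ± 0.22, and Lrp1, an endocytic receptor of hepatocytes, by 2.38 ± 0.20. Cd163, the macrophage receptor for complexes of haptoglobin and hemoglobin, fell in Atg5 KO (-2.94 ± 0.55) and in TSC1 KO (-3.09 ± 0.56) versus WT. Itih1 rose in p62 TKO (1.65 ± 0.20) and Nrf2 TKO (1.89 ± 0.20) relative to DKO, and Ambp by 1.37 ± 0.21 and 1.45 ± 0.21.

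Likeness of pattern was measured as the root mean square difference in log2 CPM, each gene centred on its own mean over the 24 libraries. The non-member genes most like Itih4 were the 3 fibrinogen chains Fga (0.269), Fgg (0.289) and Fgb (0.289). Those most like Hp were Lrg1 (0.462), Serpina10 (0.543) and Itih3 (0.588), and among the 10 genes Apcs (0.482). Saa2 had Saa1 at 0.525, and outside the 10 genes Prtn3 (1.72), Steap4 (1.79) and Scara5 (1.87). The genes nearest to Lcn2 were no closer than 1.53 (Alpk1), 1.54 (Cxcl14) and 1.59 (Ccl6), and none of the other 9 genes was nearer than Ccl6. These distances share libraries and scaling, and are given without a test. Prtn3, known as a granule protease gene of neutrophils, at 27, 13.3, 1.27 and 40.1 CPM in WT replicates 1 to 4, and Steap4, at 780, 602, 328 and 1190, followed the WT order of the 10 genes.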

How the data were processed

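RNA of 24 snap-frozen mouse liver samples was extracted with Trizol and sequenced from polyA-selected, stranded libraries as single 75-base reads, per the labels' protocols. The authors deposited raw counts per Ensembl gene; trimming with Trimmomatic 0.36, alignment with HISAT2 2.1.0 to GRCm38 and counting with HTSeq are named in the submitters' processing notes. Not given in the sources used here are the strand setting, the treatment of multi-mapping reads and the annotation release. Symbols from GENCODE M21 matched 32953 of 33019 identifiers. From the deposited counts, edgeR 4.0.16 (R 4.3.3) kept genes by its expression filter over the 6 groups, scaled totals by TMM and fitted its robust quasi-likelihood test to all 24 libraries without a block, with Benjamini-Hochberg adjustment over 15851 genes. The SE was obtained from the fold change (absolute log2) over the root of the F value. Log2 CPM used a prior count of 2. The fit was tested on simulated data. No pair of libraries agreed within sampling noise. With 4 libraries a group, their number limits the precision.

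The members and gene lists were chosen with earlier results of these data known. The text names the 10 genes in every comparison, from each list at most 4 genes of lowest adjusted p and 2 of highest mean CPM, genes chosen for their role (not all are reported here), and for Saa2, Lcn2, Hp and Itih4 the 3 nearest genes outside the 10 by pattern, passing over predicted genes. Ratios were compared by exact permutation tests on log2 values. Alternatives were DESeq2 1.42.0, edgeR with its size factors or with total counts alone, no filter, only the groups compared, the replicate block, and each library left out in turn, or WT replicates 3 and 4 together. Values of the gene lists under other scalings and without single libraries were added after seeing the data.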

Additional observations from a re-analysis of the deposited data

Results flagged for a closer look

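Lcn2 in Nrf2 TKO had a library far from the others: replicate 4 stood at 591 CPM. On the log2 CPM scale its gap to the nearest library was 0.947 of the group's range. Itih4 in DKO had replicate 3 highest at 446 CPM, with a gap of 0.86 of the range on the same log2 scale. Such gaps past the 95% limit arise by chance in about 1 in 20 groups, and 60 groups of 4 libraries were looked at. The effect of Tsc1 loss differed with and without Atg5 loss for Lcn2, by 7.04 on the log2 scale (edgeR, adjusted p = 0.0047). Lcn2 fell in TSC1 KO versus WT (-6.49) and was not called in DKO versus Atg5 KO (0.55 ± 1.14, and 2.32 without Atg5 KO replicate 4). For Saa4 it differed by -2.02 (edgeR, adjusted p = 0.046), the loss of Tsc1 going with a larger drop where Atg5 was also lost. The call on Saa4 did not hold under every alternative and was lost with total counts alone. Of all genes 19.3% were called lower in the interaction.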

How the results depend on the processing

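Among changes called for the 10 genes, 1008 alternative values kept the direction and the call and 131 kept the direction but missed the threshold, with none reversed. Among changes not called, 621 kept their side, 29 passed the threshold and 31 turned sign. The cause of these changes was not tested. WT replicate 4 and Nrf2 TKO replicate 4 changed the most calls when left out. Counts were lowest for Saa3 in DKO, with 5 to 30 a library.

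With each library left out in turn, the count of the 10 genes called ran from 4 to 10 in Atg5 KO versus WT, 3 to 8 in p62 TKO versus WT, 2 to 10 in Nrf2 TKO versus WT, 0 to 2 in TSC1 KO versus Atg5 KO, 0 to 1 in p62 TKO versus Nrf2 TKO and 1 to 3 in the interaction. Of all genes, 1724 (without WT replicate 2) to 2272 were called in TSC1 KO versus WT, against 2598 with all libraries. Without WT replicates 3 and 4, 5 of the 10 were called in Atg5 KO versus WT, 3 in p62 TKO and 3 in Nrf2 TKO versus WT and 1 in the interaction, and 3014 of all genes in Atg5 KO versus WT, against 4738. With no filter on low counts 5 were called in p62 TKO versus WT and 1 in the interaction. With only the groups compared, 2 were called in Nrf2 TKO versus WT, 8 in DKO versus TSC1 KO and 4 in TSC1 KO versus Atg5 KO, and of all genes 3691 in Nrf2 TKO versus WT (6262 in the fit of all groups) and 1677 in p62 TKO versus Nrf2 TKO (2776).

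Uncalled changes that turned sign were these. With total counts alone Lcn2 in p62 TKO versus WT stood at 0.13, Hp and Orm2 in DKO versus TSC1 KO at 0.10 and 0.32, and Orm1 in TSC1 KO versus Atg5 KO at -0.04. Without WT replicates 3 and 4 Lcn2 in p62 TKO versus WT stood at 0.79, and the interactions of Saa3 and Itih4 at -1.81 and -0.06. With each library left out in turn Lcn2 ran from -0.97 to 1.40 in p62 TKO versus WT and from -1.84 to 0.45 in DKO versus WT, and Orm2 from -1.17 to 0.28 in TSC1 KO versus Atg5 KO. In p62 TKO versus Nrf2 TKO Saa1 ran from -1.15 to 3.01, Saa2 from -1.35 to 3.36, Saa3 from -0.43 to 0.72, Saa4 from -0.67 to 0.31, Orm1 from -0.33 to 0.51, Itih4 from -0.81 to 0.12 and Apcs from -0.53 to 0.48. The interaction ran from -2.24 to 1.76 for Saa3, -0.32 to 0.33 for Itih4 and -0.33 to 1.11 for Apcs.

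Libraries with the same replicate number did not deviate together: their correlation ran from -0.282 to 0.244, and in no comparison was every pair above 0.1, so the numbers do not pair the samples. With the replicate block 1 of the 10 genes was called in p62 TKO versus Nrf2 TKO and 1 in the interaction, Lcn2 in p62 TKO versus WT stood at 0.86, and Saa1, Saa2 and Apcs in p62 TKO versus Nrf2 TKO stood at 1.72, 2.1 and 0.07.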
